A study of Homo sapiens with 4 samples.

Results

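The genes described here are 10 feedback and readout genes of the MAPK pathway: *SPRY1*, *SPRY2* and *SPRY4* of the Sprouty family, *SPRED1* and *SPRED2* of the related SPRED family, the dual-specificity phosphatases *DUSP1*, *DUSP4*, *DUSP5* and *DUSP6*, and the transcription factor gene *EGR1*. They were taken by gene symbol, whatever their values, and all 10 were found among the 33540 features counted in Ishikawa cells and the 33538 counted in T-47D cells. Ishikawa is an established endometrial adenocarcinoma line, here with features for the reporters GFP and tdTomato in its count table, and T-47D is an established line from a carcinoma of the breast. Both lines were kept in hormone-depleted medium before they received 17β-estradiol (E2) at 10 nM for 2, 4 or 8 h or the vehicle DMSO, which is the 0-h time point. Cells of the 4 time points of a line were tagged by MULTI-seq, mixed and run as 1 droplet library, and expression was counted per gene and cell in UMIs, tags that are unique to each captured RNA molecule. There was 1 culture for each line and time, so the values have no replicates, no test was possible, and the intervals given stand for counting error alone.

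The MAPK pathway runs from receptor tyrosine kinases through RAS, RAF and MEK to the kinase ERK, and active ERK switches on the genes of its own inhibitors. Sprouty and SPRED proteins act upstream, where they limit signalling from receptors through RAS to RAF. The DUSP phosphatases act at the end of the cascade and remove the activating phosphates from ERK and related kinases, DUSP5 in the nucleus and DUSP6 in the cytoplasm. *EGR1* is an immediate-early gene that ERK induces through serum response factor and its ETS-family partners, and its transcript is often read as a sign of recent ERK activity.

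The Ishikawa cultures at 0, 2, 4 and 8 h gave 776, 1480, 892 and 1465 cells after filtering, and the T-47D cultures 1525, 1207, 1341 and 553. Their summed counts came to 15305038 to 30994433 UMIs per Ishikawa time point and 12927799 to 33175309 UMIs per T-47D time point, and the median cell held 19121.5 to 22576 UMIs. Levels are given as CPM, in which the UMIs of a gene are scaled to the total of the culture. In Ishikawa 38.2% of the tagged cells at 0 h passed the limits on cells, against 52.4% to 55.8% at the later times. The libraries of the lines shared 80 cell barcodes, out of 14985 and 18188. *PAX8*, *SOX17* and *EMX2*, markers of endometrial epithelium, were at 52.4 to 133 CPM in Ishikawa and had no UMI in T-47D, while *GATA3*, a marker of luminal breast cells, was at 444 to 518 CPM in T-47D and had 1 UMI in all of Ishikawa. The other luminal markers, *TRPS1* and *FOXA1*, were at 84.4 to 583 CPM in T-47D and 4.44 to 21.2 CPM in Ishikawa, and the epithelial genes *EPCAM*, *KRT8* and *KRT18* were at 221 CPM or more in both lines. *PTPRC* and *PECAM1*, which mark leukocytes and endothelium, had at most 3 UMIs in any culture, and the fibroblast gene *COL1A1* was at 5.58 to 28.9 CPM.

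After E2 treatment only *SPRY1* and *EGR1* of the feedback genes passed a fold rule that also asks for a mean of 10 CPM, and they did so in opposite directions. Under that minimum other genes differed from 0 h by more than 1.5-fold on the log2(CPM + 1) scale of the rule. These were *DUSP5* in Ishikawa at 2 h (log2 fold change -0.89), *SPRY4* in Ishikawa at 8 h (0.81) and *DUSP1* in T-47D at 4 h (-0.72) and 8 h (-0.71). By the plain ratio of CPM more genes did so, such as *SPRY2* in Ishikawa at 2 h (0.614). *SPRY1* was lower in both lines at 2 h and stood more than 2-fold below the 0-h time point at its lowest in each, while *EGR1* rose 2.66-fold by 8 h in Ishikawa and was almost undetected in T-47D. In Ishikawa 8 of the 10 genes had their lowest level at 2 h and 9 their highest at 8 h, *SPRY1* being the exception with its highest level at 0 h, although many of these steps were within counting error. Of the 7885 Ishikawa genes with a mean of 10 CPM or more, 27.7% had their lowest level at 2 h and 31.4% their highest at 8 h. Of the 5 feedback genes with such a mean, 4 were lowest at 2 h and 4 highest at 8 h. In T-47D *SPRY1*, *DUSP1* and *DUSP5* had lower values than at 0 h at all later times, *SPRED2* stayed near its 0-h level, and the other feedback genes were rare.

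Under the fold rule a gene had to average 10 CPM or more across a line's 4 cultures and to differ from 0 h by at least 1.5-fold on the log2(CPM + 1) scale. By this minimum 5 of the 10 genes could pass in Ishikawa (*SPRY1*, *SPRED1*, *SPRED2*, *DUSP6* and *EGR1*) and 1 of 10 in T-47D (*SPRY1*). In Ishikawa 1 of the 10 was lower at 2 h, beside 0.659% of the 7885 measured genes that met the minimum (0.786% were higher). At 4 h 1 was lower, beside 0.621% of all (0.634% were higher), and both times it was *SPRY1*. At 8 h 1 was higher, *EGR1*, beside 0.812% of all genes higher and 0.469% lower. In T-47D 1 was lower at 2 h (0.417% of 7440 genes), none at 4 h (0.363%) and 1 at 8 h (0.726%), *SPRY1* each time, and none was higher, beside 1.22%, 1.33% and 2.34% of all genes. The minimum averages all 4 times with 0 h among them, and *SPRY1* in T-47D met it with its higher 0-h level counted in. *DUSP1*, which was also lower there at all later times, fell just short of it. The median log2 fold change of the 5 Ishikawa genes past the minimum was -0.26 at 2 h, -0.07 at 4 h and 0.36 at 8 h, against -0.01, -0.01 and 0.00 over all genes past it. The 8-h median in Ishikawa is the value of *SPRED2*, which met the minimum with its higher 8-h level counted in. The Ishikawa genes under the minimum had 8-h values from 0.04 (*DUSP5*) to 0.81 (*SPRY4*). Since a gene had to be well detected to enter, these counts and medians describe the detected genes and not all 10.

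**Figure D1:**
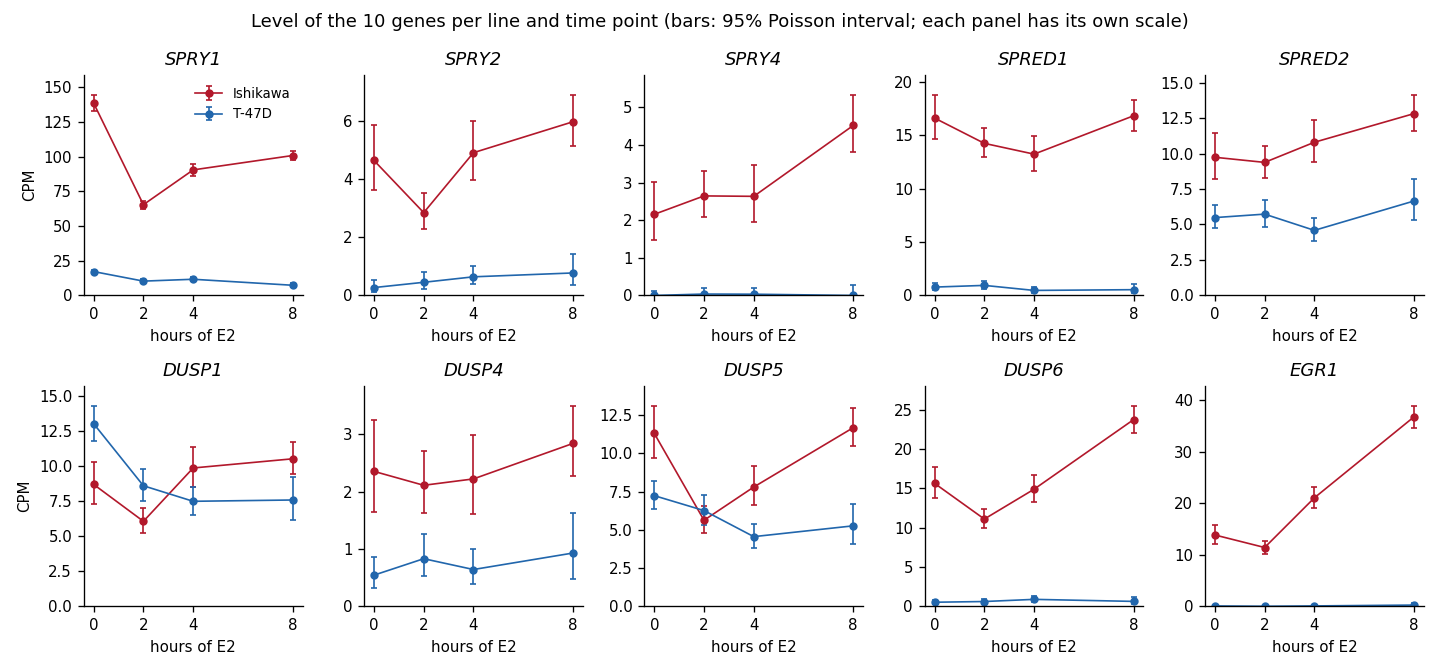
Level of each of the 10 genes in CPM (y axis, linear, each panel with its own scale from 0) against hours of E2 (x axis) in Ishikawa (red) and T-47D (blue); points are summed cells of 1 culture and bars are 95% Poisson intervals. SPRY1 in Ishikawa drops from 138 CPM at 0 h to 65.4 CPM at 2 h, EGR1 in Ishikawa climbs to 36.8 CPM at 8 h, and the T-47D points of EGR1 and SPRY4 lie at the bottom of their panels.

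Of the Sprouty genes, *SPRY1* was the one with a change past the rule. It lies on human chromosome 4 (chr4:123396795-123403760 in GRCh38.p14). In Ishikawa its level was 138 CPM at 0 h (2119 UMIs, 95% Poisson interval 133 to 144), then 65.4 CPM at 2 h (62.5 to 68.4), 90.4 CPM by 4 h (86.2 to 94.8) and finally 101 CPM at 8 h (97.3 to 104). It was therefore lowest at 2 h, and the intervals of the 4 time points did not overlap. The ratio to 0 h was 0.472 at 2 h (95% counting interval 0.444 to 0.503), 0.653 at 4 h (0.613 to 0.696) and 0.728 at 8 h (0.689 to 0.770), and the corresponding log2 fold changes were -1.07, -0.61 and -0.45. From 2 h to 4 h the level gained a factor of 1.38 (1.30 to 1.48) and from 4 h to 8 h a factor of 1.11 (1.05 to 1.18), so that at 8 h the difference from 0 h was no longer past 1.5-fold. The 4-h value lies close to the rule's limit and does not pass it when the cultures are scaled by trimmed means (TMM, -0.57) or by median ratios (-0.57), nor in the cells without a UMI of the division markers *TOP2A* and *MKI67* (-0.56). With every tagged cell in place of the filtered cells, of which the 0-h culture kept the smallest share, the 2-h log2 fold change was -1.09.

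The T-47D cells held less *SPRY1*, and its time course differed. The level was 17.2 CPM at 0 h (571 UMIs, 15.8 to 18.7), 10.3 CPM at 2 h (9.14 to 11.6), 11.7 CPM at 4 h (10.5 to 13.0) and 7.35 CPM at 8 h (5.95 to 8.98). All 3 later values lay below 0 h without overlap of the intervals, and the lowest came at 8 h and not at 2 h. Against 0 h the ratios were 0.600 (0.518 to 0.694), 0.678 (0.592 to 0.776) and 0.427 (0.340 to 0.531), with log2 fold changes of -0.68, -0.52 and -1.13. Between 4 h and 8 h *SPRY1* in T-47D went down by a factor of 0.630 (0.496 to 0.792), where in Ishikawa it went up. The 8-h culture of T-47D gave 95 UMIs of the gene, and whether the time courses of the lines differ beyond culture-to-culture spread was not tested.

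The decrease in *SPRY1* was visible in single cells as well as in the sums. In Ishikawa 67.0% of the cells had at least 1 UMI of *SPRY1* at 0 h (95% exact binomial interval 63.6% to 70.3%), 54.1% at 2 h (51.5% to 56.6%), 64.2% at 4 h (61.0% to 67.4%) and 67.9% at 8 h (65.5% to 70.3%). When every cell was thinned to 12539 UMIs, which left out 57 to 175 cells per time point, the shares were 57.7%, 43.2%, 51.6% and 57.3%. The share of cells with any *SPRY1* was thus back at the 0-h value by 8 h, but the share of cells with many transcripts was not. Thinned cells with 6 or more UMIs made up 8.28% before E2 and 1.15%, 2.04% and 2.77% after 2, 4 and 8 h, and the mean number of UMIs in cells with at least 1 was 2.99, 1.86, 2.19 and 2.31. In T-47D, thinned to 14495 UMIs, the share of cells with a UMI was 19.7%, 12.4%, 14.1% and 7.32%, and unthinned it was 27.0%, 17.9%, 19.9% and 13.2%.

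**Figure D2:**
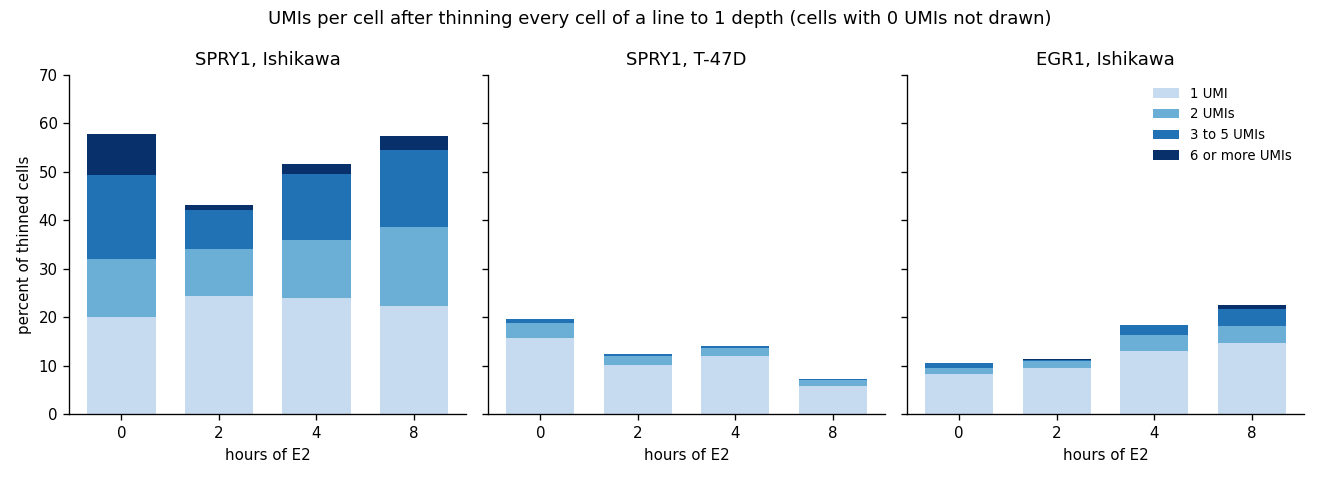
Percent of thinned cells (y axis) with 1, 2, 3 to 5 or 6 and more UMIs (light to dark stacked bars; cells with 0 UMIs are not drawn) at each time of E2 (x axis) for SPRY1 in Ishikawa, SPRY1 in T-47D and EGR1 in Ishikawa. The darkest class of SPRY1 shrinks from 8.28% of Ishikawa cells at 0 h to 2.77% at 8 h, while for EGR1 it first becomes visible at 8 h with 0.973% of cells.

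The promoter of *SPRY1* is shown because this gene was lower past the fold rule in both lines. The sequence is the RefSeq window of 250 bases before the first annotated start, chr4:123396545-123396794 on the plus strand of GRCh38.p14, read 5′ to 3′.
SPRY1: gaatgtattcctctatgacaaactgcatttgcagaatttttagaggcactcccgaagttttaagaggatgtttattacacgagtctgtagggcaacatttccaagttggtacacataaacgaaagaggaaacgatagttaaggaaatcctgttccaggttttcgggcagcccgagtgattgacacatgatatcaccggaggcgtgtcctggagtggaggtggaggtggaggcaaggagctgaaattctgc
The window was searched on both strands for 7 motifs: the CArG box bound by serum response factor, the cyclic AMP response element TGACGTCA, the AP-1 site TGANTCA, the ETS site CCGGAA, the SP site GGGCGG, the EGR sites GCGGGGGCG and GCGTGGGCG, and the estrogen response element GGTCANNNTGACC. None of these letters was found in it, so no base is in capitals. A second annotated start of *SPRY1* (window chr4:123398136-123398385) had 1 ETS site, 2 SP sites and 1 EGR site, the last overlapping an SP site. Over all 35116 windows of this kind 14.5% held an ETS site, 42.6% an SP site, 5.37% an EGR site and 0.0399% the estrogen response element, so the ETS and SP letters are common in promoters. No window of the 8 feedback genes with an entry held the estrogen response element or the AP-1 site; *DUSP4* and *DUSP5* had no entry.

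*SPRY2* and *SPRY4* were sparse. *SPRY2* was at 4.64 CPM (71 UMIs), 2.85, 4.91 and 5.97 CPM (185 UMIs) over the Ishikawa time course, lowest at 2 h with a ratio to 0 h of 0.614 (0.442 to 0.853). *SPRY4* in Ishikawa was at 2.16 CPM (33 UMIs), 2.65 CPM, 2.63 CPM and 4.52 CPM (140 UMIs), and its 8-h ratio of 2.09 (1.43 to 3.16) was the largest of the 10 genes in this line after that of *EGR1*. Both lie under the 10 CPM minimum, so neither counted as changed. In T-47D *SPRY2* had 9, 12, 19 and 10 UMIs, and *SPRY4* had 0, 1, 1 and 0 UMIs, where a count of 0, read as up to 3 UMIs, allows a level of up to 0.0904 CPM at 0 h and 0.232 CPM at 8 h. A change of *SPRY4* in T-47D was therefore not detectable at this depth.

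The SPRED genes, which encode membrane-bound inhibitors that recruit neurofibromin to RAS, stayed within the rule in Ishikawa. In T-47D both were under its minimum and could not pass. *SPRED1* in Ishikawa was at 16.6 CPM at 0 h (14.6 to 18.8) and then at 14.2, 13.2 and, at 8 h, 16.8 CPM (15.4 to 18.3), with ratios to 0 h of 0.857 (0.732 to 1.01), 0.797 (0.667 to 0.951) and 1.01 (0.870 to 1.18). *SPRED2* was at 9.74, 9.38, 10.8 and 12.8 CPM in Ishikawa, with an 8-h ratio of 1.32 (1.09 to 1.60). Its 8-h log2 fold change of 0.36 was 0.24 with every tagged cell. In the cells without a UMI of *TOP2A* and *MKI67* it was 0.73, which is more than 1.5-fold. In T-47D *SPRED2* was at 5.49, 5.73, 4.59 and 6.65 CPM and no ratio to 0 h had an interval that left out 1, whereas *SPRED1* had 26, 25, 14 and 7 UMIs. The paralogs thus differed most between the lines in *SPRED1*, whose level at 0 h was 16.6 CPM in Ishikawa and 0.784 CPM in T-47D (0.512 to 1.15).

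Among the phosphatases, *DUSP1*, an immediate-early gene whose nuclear product acts on ERK, JNK and p38, followed a different course in each line. In Ishikawa it was at 8.69 CPM at 0 h (7.28 to 10.3), 6.06 CPM at 2 h (5.21 to 7.01), 9.86 CPM at 4 h (8.51 to 11.4) and 10.5 CPM at 8 h (9.41 to 11.7). Its 2-h ratio was 0.697 (0.554 to 0.879), and the 4-h and 8-h intervals included 1. In T-47D it was at 13.0 CPM at 0 h (432 UMIs, 11.8 to 14.3), 8.60 CPM at 2 h, 7.49 CPM at 4 h and 7.58 CPM at 8 h (98 UMIs, 6.15 to 9.24). There it was below 0 h at every later time without overlap of the intervals, with ratios of 0.660 (0.560 to 0.777), 0.575 (0.487 to 0.678) and 0.582 (0.463 to 0.726). With means of 8.78 and 9.17 CPM over the time points *DUSP1* fell just short of the minimum in both lines, so none of these values counts as a change under the rule.

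*DUSP5* and *DUSP6* both encode phosphatases selective for ERK and behaved differently from each other at 8 h in Ishikawa. *DUSP5* was at 11.3 CPM at 0 h (173 UMIs, 9.68 to 13.1), 5.63 CPM at 2 h (4.81 to 6.54), 7.80 CPM at 4 h (6.60 to 9.15) and 11.7 CPM at 8 h (10.5 to 12.9). The 2-h ratio of 0.498 (0.400 to 0.619) was close to that of *SPRY1* in the same cells, but its mean of 9.10 CPM was under the minimum, and by 8 h the ratio was 1.03 (0.860 to 1.246). *DUSP6* was at 15.6 CPM (13.7 to 17.7), 11.1 CPM (9.92 to 12.3), 14.9 CPM (13.2 to 16.7) and 23.7 CPM (22.0 to 25.5). It thus was lowest at 2 h, with a ratio of 0.710 (0.599 to 0.842), and highest at 8 h, with a ratio of 1.52 (1.31 to 1.76). On the log2(CPM + 1) scale the 8-h difference was 0.57, just inside the limit of the rule, and TMM or median-ratio scaling took it past the limit at 0.60. In cells with under 1% GFP UMIs it was 0.39, and in cells without a UMI of *TOP2A* and *MKI67* it was 0.73. The 2-h difference of *DUSP6* was -0.46, and in the same 2 sets of cells it was -0.64 and -0.12.

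In T-47D *DUSP5* was at 7.23 CPM at 0 h (6.35 to 8.21), 6.26 CPM at 2 h, 4.55 CPM at 4 h (3.82 to 5.39) and 5.26 CPM at 8 h (4.08 to 6.67). The 4-h ratio was 0.629 (0.506 to 0.780) and the 8-h ratio 0.727 (0.547 to 0.955), below the 0-h level but under the minimum. *DUSP6* was close to absent from these cells, with 17, 16, 26 and 8 UMIs. *DUSP4*, which encodes a nuclear phosphatase, was low in both lines: it stood at 2.11 to 2.84 CPM in Ishikawa and at 12 to 22 UMIs in T-47D, and every interval of its ratio to 0 h included 1.

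**Figure D3:**
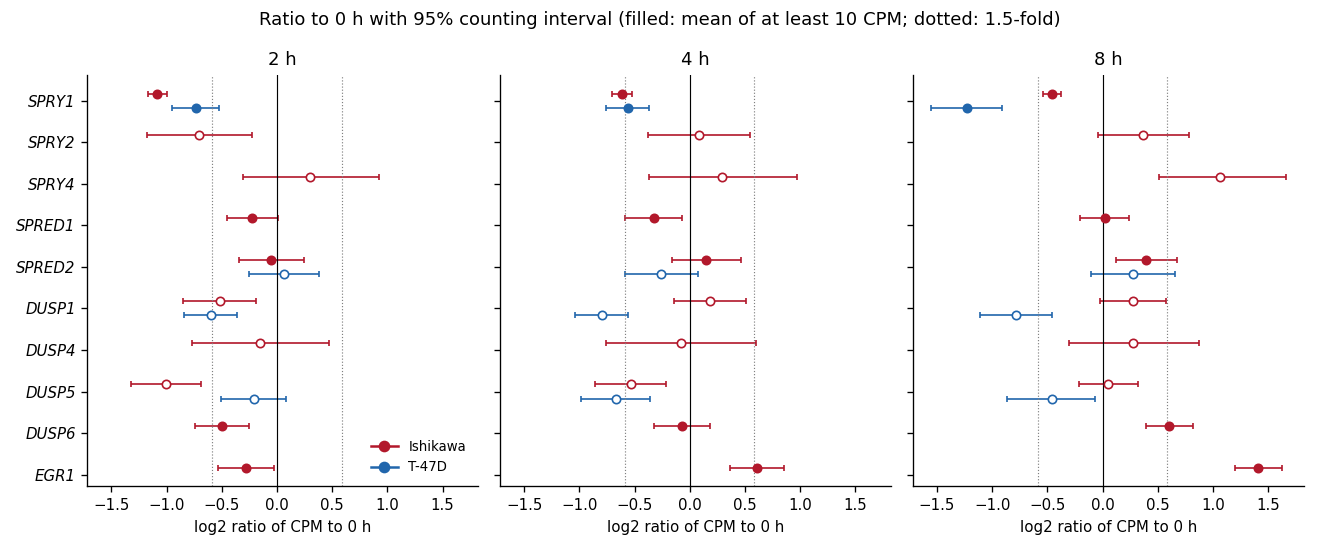
Log2 ratio of CPM to 0 h of the same line (x axis) for each gene (y axis) at 2, 4 and 8 h, Ishikawa in red and T-47D in blue, with 95% counting intervals as bars; filled points are genes with a mean of at least 10 CPM, dotted lines mark 1.5-fold, and a gene is drawn only with at least 30 UMIs at 0 h, which leaves 10 genes in Ishikawa and 4 in T-47D. SPRY1 lies left of zero in both lines at every time, and EGR1 in Ishikawa moves from left of zero at 2 h to the far right at 8 h.

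*EGR1* rose late in Ishikawa. It lies on human chromosome 5 (chr5:138465479-138469303). It was at 13.9 CPM at 0 h (212 UMIs, 12.05 to 15.8), 11.4 CPM at 2 h (10.2 to 12.7), 21.1 CPM at 4 h (19.1 to 23.2) and 36.8 CPM at 8 h (1140 UMIs, 34.7 to 39.0). The 0-h and 2-h intervals overlapped, and the 4-h and 8-h values stood above both and apart from each other. The ratios to 0 h were 0.824 (0.692 to 0.983), 1.52 (1.29 to 1.80) and 2.66 (2.29 to 3.09), with log2 fold changes of -0.26, 0.57 and 1.35. Each step after 2 h raised the level, by a factor of 1.85 (1.59 to 2.14) up to 4 h and of 1.75 (1.56 to 1.96) from there to 8 h. The 4-h value stopped just inside the limit of the rule, which it passes at 0.61 with TMM or median-ratio scaling. It depended on the cells used, at 0.21 in cells without a UMI of *TOP2A* and *MKI67* and 0.86 in thinned cells. These were the lowest and highest of the alternative settings.

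The cells with *EGR1* were more frequent at 4 and 8 h, and at every time a few cells held much of the transcript. The share of Ishikawa cells with at least 1 UMI was 17.3% at 0 h (14.7% to 20.1%), 15.4% and 24.8% after 2 and 4 h, and 32.0% at 8 h (29.6% to 34.5%), and 10.5%, 11.3%, 18.4% and 22.6% after thinning. The 1% of cells with the most *EGR1* held 20.8% of its UMIs at 0 h, 24.3% at 2 h, 14.95% at 4 h and again 24.7% at 8 h, so this concentration was already present without E2. The highest count in 1 cell was 11, 21, 10 and 52 UMIs in the same order. Without the top 1% of cells of each time point the log2 fold change at 8 h was 1.26, and with every tagged cell it was 1.37. In T-47D *EGR1* had 2, 0, 2 and 3 UMIs in the 4 cultures, where 0 UMIs at 2 h, read as up to 3, allows up to 0.113 CPM and 0.131% of the cells at 0 h had a UMI at a median depth of 20677 UMIs per cell, against 19121.5 in Ishikawa. A response of *EGR1* in T-47D could not be read at this depth, with an 8-h ratio of 3.85 whose interval runs from 0.441 to 46.1.

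The windows before the starts of *EGR1* and *DUSP1* are shown because they hold the motifs through which immediate-early genes are classically driven. Both genes belong to that class, and their log2 fold changes at 8 h in Ishikawa were 1.35 and 0.25. In the *EGR1* window, chr5:138465229-138465478 on the plus strand, capitals mark 2 CArG boxes, 105 to 96 and 83 to 74 bases before the start. In the *DUSP1* window, chr5:172771196-172771445 on the minus strand, capitals mark the cyclic AMP response element, 125 to 118 bases before the start. Both are RefSeq sequences of GRCh38.p14 written 5′ to 3′ in the direction of transcription.
EGR1: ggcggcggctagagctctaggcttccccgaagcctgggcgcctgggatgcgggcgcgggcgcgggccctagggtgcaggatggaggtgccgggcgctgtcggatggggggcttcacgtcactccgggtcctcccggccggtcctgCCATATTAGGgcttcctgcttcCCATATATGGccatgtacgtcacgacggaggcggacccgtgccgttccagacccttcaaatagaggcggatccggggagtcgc
DUSP1: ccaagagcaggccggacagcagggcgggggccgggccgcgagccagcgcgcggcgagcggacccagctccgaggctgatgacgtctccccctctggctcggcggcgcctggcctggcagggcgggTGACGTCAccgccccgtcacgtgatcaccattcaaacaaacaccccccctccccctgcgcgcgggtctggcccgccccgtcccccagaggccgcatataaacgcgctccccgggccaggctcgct
A CArG box was present in 1.16% of all 35116 windows and the cyclic AMP response element in 1.65%. The *DUSP1* window also held 4 SP sites, and no CArG box was found in the windows of the other 7 feedback genes with an entry. These are matches of letters and no binding was measured.

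Ishikawa cells differed in their GFP content, and the level of some feedback genes differed with it. GFP made up 4.67% of all UMIs at 0 h and 3.17%, 3.95% and 4.10% after 2, 4 and 8 h of E2. The values that follow are CPM computed without reporter and mitochondrial UMIs, for cells with under 1% GFP (446 to 942 per time point) and cells with at least 1% (330 to 564). *DUSP1* was at 3.95, 3.89, 5.65 and 5.37 in the cells with little GFP and at 18.5, 11.9, 19.96 and 23.2 in the cells with more, with no overlap of the intervals at any time. *DUSP5* likewise was lower in the first cells, at 7.78, 4.16, 6.34 and 9.74, than in the second, at 19.8, 9.96, 12.4 and 18.5. The dip of *DUSP1* at 2 h was found in the GFP-rich cells (ratio 0.644, 0.486 to 0.855) and not in the others (0.985, 0.647 to 1.53), intervals that overlap, and the dip of *DUSP5* was found in both (0.502 and 0.535).

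*SPRY1* was lower at 2 h in both sets of Ishikawa cells, from 164 to 72.2 in those with little GFP (ratio 0.439, 0.407 to 0.473) and from 132 to 67.6 in those with more (0.514, 0.460 to 0.573). The rise of *EGR1* by 8 h was likewise present in both, from 13.0 to 29.5 (ratio 2.27, 1.85 to 2.81) and from 18.7 to 60.3 (3.23, 2.61 to 4.03). The share of cells with a UMI of *EGR1* at 8 h was nevertheless close, at 31.7% with little GFP and 32.4% with more. The intervals do not cover UMIs gathered in a few cells. At 4 h the ratio of *EGR1* was 1.80 (1.44 to 2.26) in the cells with little GFP and 1.18 (0.904 to 1.54) in the GFP-rich cells. *DUSP6* showed no such gap in level, at 25.3 and 26.8 at 8 h, with ratios to 0 h of 1.33 (1.11 to 1.59) and 1.91 (1.47 to 2.51). The part that GFP load plays in the time courses was not tested. Cells without a UMI of the division markers *TOP2A* and *MKI67*, 247 to 487 per Ishikawa time point, gave *SPRY1* a log2 fold change of -1.23 at 2 h and *EGR1* one of 0.95 at 8 h.

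**Figure D4:**
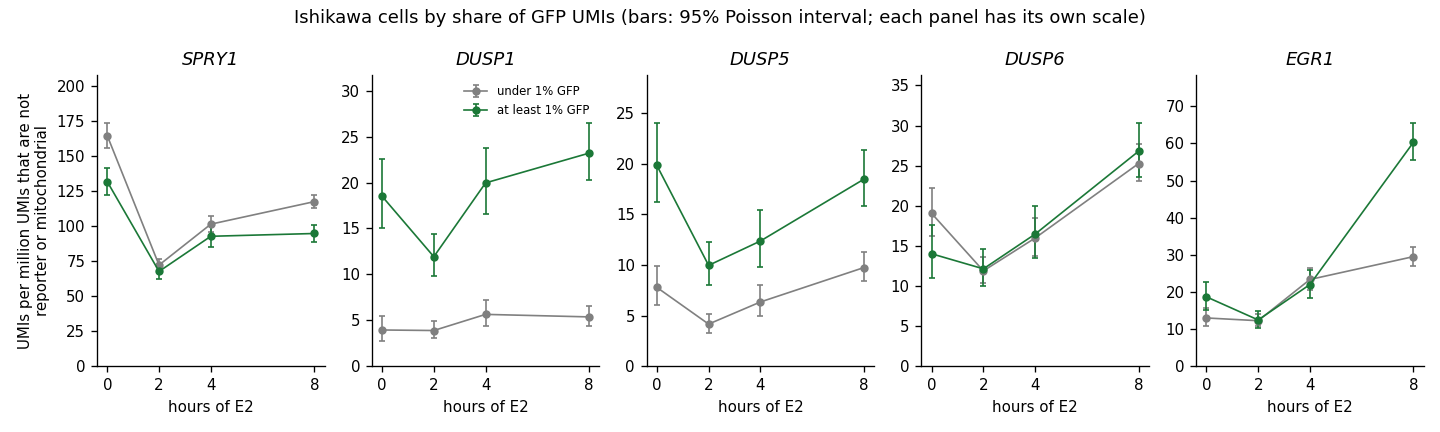
Level of 5 feedback genes in Ishikawa (y axis, CPM computed without reporter and mitochondrial UMIs, each panel with its own scale from 0) against hours of E2 (x axis), in cells with under 1% GFP UMIs (grey) and at least 1% (green); bars are 95% Poisson intervals. DUSP1 and DUSP5 lie higher in the green cells at all 4 times, SPRY1 drops at 2 h in both, and EGR1 at 8 h reaches 29.5 in grey and 60.3 in green.

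Pairs of feedback genes were also compared across thinned Ishikawa cells. Spearman's rho lay between -0.14 and 0.15 over the pairs computed, which leave out *SPRY4* at 0 and 4 h and *DUSP4* at 0 h. Most of these genes had a UMI in few cells, which by itself holds rho near 0, so the values are a description and do not show that the genes vary apart. The highest, 0.15 at 8 h, was between *SPRY1* and *DUSP6*, which were found together in 15.4% of cells where the product of their shares gives 12.4%. *SPRY1* and *EGR1*, which parted in their time courses, had a rho of 0.00 at 8 h. The genes whose 6 log2 fold changes over both lines were most like those of *SPRY1*, out of 6404 genes that met the minimum in each of the lines, were *AMIGO2* (root mean square difference 0.227), *NR2F1* (0.264) and *CITED2* (0.283).

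The other genes of the pathway give the setting. The kinase cascade itself moved little: of its 18 listed genes, from *GRB2* and the RAS genes to the ERK genes, 16 passed the minimum in Ishikawa and 14 in T-47D, and none passed the fold rule at any time. Nor did any of 9 other MAPK phosphatases (2 and 4 past the minimum) or of 10 other inhibitors of receptor and RAS signalling (4 and 5 past it). For comparison, 1.15% of all well-measured Ishikawa genes were higher and 1.29% lower at any of the 3 times, and in T-47D 2.67% and 0.981%. At the top of the pathway, of 10 growth factor ligand genes 4 passed the minimum in Ishikawa and 1 in T-47D. In Ishikawa *TGFA* was higher, with log2 fold changes of 1.48, 1.60 and 1.84 at 2, 4 and 8 h. *AREG*, the only ligand gene past the minimum in T-47D, was higher there with 1.61, 1.67 and 1.73. Both encode ligands of the EGF receptor. Of 10 receptor genes 5 passed the minimum in Ishikawa, where *FGFR2* was lower at 4 h (-0.76). In T-47D 7 passed it, and *ERBB2* was lower (-0.80) and *IGF1R* higher (0.72) at 8 h.

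Other genes that ERK or growth factors are known to switch on were also counted. Of 14 other immediate-early genes 7 passed the minimum in Ishikawa, and 4 of these were lower at 2 h, beside 0.659% of the 7885 genes that met it. At that time 8 of the 10 feedback genes, and 4 of the 5 past the minimum, had their lowest level, beside 27.7% of the 7885 genes. *SPRY1* was then at -1.07 and *EGR1* at -0.26. The 4 immediate-early genes were *CTGF* (-0.92), *ATF3* (-0.80), *JUNB* (-0.75) and *IER2* (-0.71), and the median of the 7 was -0.71. At 4 h 1 of the 7 was lower (-0.61), beside 0.621% of all genes past the minimum. The median of the 7 was then -0.18 and *EGR1* was at 0.57. At 8 h none of the 7 passed the rule and their median was 0.11, whereas *EGR1* was at 1.35. In T-47D none of 6 passed at any time. Of 10 other ERK target genes 5 passed the minimum in Ishikawa and 3 in T-47D. At any of the 3 times 1.15% of all Ishikawa genes past it were higher and 1.29% lower, and in T-47D 2.67% and 0.981%. *MYC* was higher in Ishikawa at all 3 times (0.77, 0.78 and 0.81), and *IER3*, a regulator of cell survival, was lower in Ishikawa (-1.57, -1.57 and -1.38) and higher in T-47D (1.27, 0.96 and 1.08). *CCND1*, the gene of cyclin D1, was higher in T-47D at 2 h (0.63).

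Factors that act on *EGR1* or through the ETS site were also counted. Of 8 genes for ETS and serum response factors and EGR corepressors, 7 passed the minimum in Ishikawa and 3 in T-47D. *ETS2* (-0.84) and *ETS1* (-0.62) were lower in Ishikawa at 2 h, beside 0.659% of all genes past the minimum. *NAB2*, whose product binds EGR1 protein and represses its targets, was higher in Ishikawa at 8 h (0.67), beside 0.812% of all genes past the minimum. It is known as a gene that EGR1 induces, and *EGR1* was also highest at 8 h. Whether the levels of *NAB2* and *EGR1* are linked in these cells was not tested. None of the 3 genes passed the rule in T-47D.

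**Figure D5:**
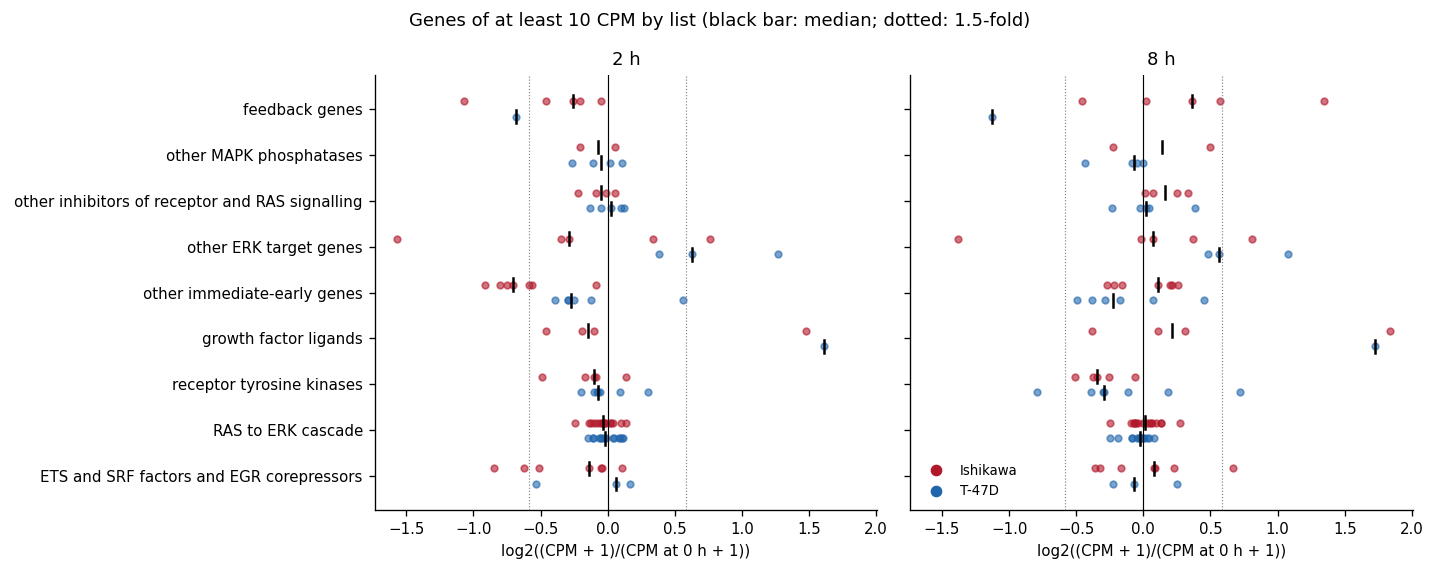
Log2((CPM + 1)/(CPM at 0 h + 1)) (x axis) at 2 h and 8 h of the genes of at least 10 CPM in the feedback group and 8 other lists of pathway genes (y axis), Ishikawa in red and T-47D in blue; each point is a gene, black bars are medians and dotted lines mark 1.5-fold. The cascade genes crowd around zero, the Ishikawa immediate-early genes lie to the left at 2 h with a median of -0.71, and EGR1 stands at 1.35 among the Ishikawa feedback genes at 8 h.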

How the data were processed

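The counts used are the UMI counts per gene and cell barcode that the authors deposited for each line, made with Cell Ranger 3.1.0 on hg38 per the submitters' processing notes. Time points are the calls the authors made from the MULTI-seq tags with the demultiplex R package. Barcodes called as doublets and barcodes without a call were left out of all comparisons, and no further doublet caller was run, so a pair of cells from 1 culture was not removed. Cells were kept within the limits of the study's methods. An Ishikawa cell had to hold 8500 to 35000 UMIs from 2700 to 6000 genes, with a mitochondrial share below 7%. A T-47D cell had to hold 7500 to 40000 UMIs from 1500 to 6000 genes, with a share below 20%; these limits removed none of the T-47D cells with a time point. The counts of all kept cells of a culture were added up and scaled to their total (CPM).

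Fold changes are log2((CPM + 1)/(CPM at 0 h + 1)), a scale that understates the change of low genes; ratios carry no pseudocount. The limit that a count of 0 allows was set at 3 UMIs of the culture's total, in place of the Poisson bound. Intervals of 95% are exact Poisson for levels, Clopper-Pearson for shares and conditional binomial for ratios. UMIs of 1 library are counted molecules, but these intervals do not cover differences between cultures. Cells are not replicates, so no p-value is given. GFP and tdTomato were left out of the genes tested. To compare shares of cells, each cell was thinned to the 10th percentile of UMIs of its line, without the shallower cells. The steps were tested on simulated data with known changes. Python 3.11.15, numpy 2.4.6, scipy 1.17.1 and pandas 2.3.3 were used, and edgeR 4.0.16 in R 4.3.3 for TMM factors as an alternative scaling.

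The genes named are the 10 feedback genes whatever their values, the genes of each pathway list past the fold rule (at most the 4 with the largest change in each line), the 3 genes most like each feedback gene past 10 CPM in both lines, and marker genes. The genes and lists were chosen with earlier results of these data known. Sequences are from a RefSeq table of GRCh38.p14, which is the hg38 build of the files; 8 of the 10 genes had an entry. The alternatives changed the scaling, pseudocount, minimum, fold, set of cells, depth of cells and weight of cells. The MULTI-seq barcode libraries were not used here.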

Additional observations from a re-analysis of the deposited data

How the results depend on the processing

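No paired analysis was possible because each time point of a line was 1 culture without replicate numbers, and no culture could be left out for the same reason. Of 174 counts of feedback genes past the rule under another setting, 136 equalled the reported count. The reported counts were all 0 or 1, and 1 of the 10 genes met the minimum in T-47D. Many of the 174 thus had little room to differ, and their number is no measure of robustness. In Ishikawa, 1 gene was lower at 2 h, and 2 were without a minimum, at a smaller fold limit or in cells under 1% GFP, and 3 in cells without *TOP2A* and *MKI67*. At 4 h in Ishikawa the count higher went from 0 to 1 (*EGR1*) under TMM, median ratios, a smaller fold limit, every called cell, the lower UMI limit, cells under 1% GFP, thinned cells or without the top 1% of cells, and the count lower went from 1 to 0 under TMM, median ratios or 2-fold. In cells without *TOP2A* and *MKI67* that count stayed at 1 but was *DUSP5* (-0.59) and not *SPRY1* (-0.56). At 8 h in Ishikawa the count higher went from 1 to 2 under TMM, median ratios, no minimum, every called cell, the mean over cells or without the top 1% of cells, to 3 at a smaller fold limit or in cells without *TOP2A* and *MKI67*, and to 0 at a minimum of 50 CPM, and the count lower went from 0 to 1 at a smaller fold limit or in cells without *TOP2A* and *MKI67*. In T-47D the count lower at 2 h went from 1 to 0 with a pseudocount of 5 CPM, a minimum of 50 CPM or 2-fold, and to 2 in cells without *TOP2A* and *MKI67*. At 4 h it went from 0 to 1 with totals without reporter and mitochondrial UMIs, no minimum, a smaller fold limit or cells without *TOP2A* and *MKI67*. At 8 h it went from 1 to 2 with those totals, no minimum or those cells, and to 0 at 50 CPM. Every called cell is the same set as the reported one in T-47D and so tests nothing there. The minimum and the fold act by construction, and the cause of the other shifts was not tested.

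Over the settings the log2 fold change of *SPRY1* at 2 h in Ishikawa ranged from -1.23 to -1.03 and at 8 h in T-47D from -1.32 to -0.85, and that of *EGR1* at 8 h in Ishikawa from 0.95 to 1.61. Less settled in Ishikawa were *EGR1* at 2 h, from -0.79 to 0.00, and at 4 h, from 0.21 to 0.86. So were *DUSP6* at 2 h, from -0.64 to -0.12, and *DUSP5* at 8 h, from -0.32 to 0.29. No change of a feedback gene past the rule reversed its sign. In T-47D the depth limits what can be said of *SPRY2*, *SPRY4*, *SPRED1*, *DUSP4*, *DUSP6* and *EGR1*, none of which had more than 26 UMIs in a culture.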

Other observations

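Barcodes without a time point, either called as doublets or without any call, also held the feedback genes. Why a barcode has no call was not tested. In Ishikawa the 1906 doublet calls stood at 100.02 CPM of *SPRY1*, 29.8 CPM of *EGR1*, 17.6 CPM of *DUSP6* and 9.88 CPM of *DUSP5*, and the 4002 barcodes without a call at 119 CPM, 26.9 CPM, 21.3 CPM and 7.31 CPM. These 8 values lie between the lowest and the highest time point of the same gene. Other values did not: *DUSP1* at 4.91 CPM and *DUSP4* at 1.97 CPM in the barcodes without a call were below every time point, and *SPRED1* at 17.6 CPM in the doublet calls was above every time point. In T-47D *SPRY1* was at 12.9 CPM in the 1442 doublet calls and at 11.4 CPM in the 12120 barcodes without a call, whose median depth of 7023.5 UMIs was below that of the kept cells and below the lower UMI limit of 7500 applied to them. *EGR1* had 2 and 14 UMIs there.

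In the kept T-47D cells 1 cell at 4 h held 11 UMIs of *DUSP1*, and in Ishikawa 1 cell at 8 h held 47, out of 326 UMIs of the gene in that culture. The 1% of Ishikawa cells with the most *DUSP1* held 36.2% of its UMIs at 8 h and 33.1% at 0 h.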
